A study of Mus musculus with 6 samples.

Results

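The genes described here are 10 mouse genes that encode neuropeptide precursors or granins, namely *Cartpt*, *Tac1*, *Gal*, *Npy*, *Sst*, *Penk*, *Pdyn*, *Vgf*, *Scg2* and *Chga*. They were chosen by symbol, by a rule that uses no measured value, though with earlier results of these data known, and matched to the Ensembl genes of the RNA-seq tables. All 10 were found among the 43346 Ensembl mouse genes in each table, and all 10 passed the filter on low counts, which kept 15747 genes. Neuropeptides are made as larger precursor proteins that enter the regulated secretory pathway, are cut by prohormone convertases, trimmed, often amidated, and stored in dense core vesicles until activity triggers their release. Granins are acidic proteins that help to form these vesicles, and they are themselves cut into peptides. In the retina most neuropeptides are found in subsets of amacrine cells, and some, such as the product of *Cartpt*, mark subsets of retinal ganglion cells (RGCs), the neurons whose axons form the optic nerve.

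RNA was sequenced from cultured mouse RGCs purified with an antibody to CD90, the product of *Thy1*. The control group received an AAV encoding EGFP, the second group an AAV encoding wild-type Sox11 (labelled SOX11_WT, here Sox11), and the third an AAV encoding Sox11 K91A (labelled SOX11_MUTANT), in which the lysine at position 91, a site of SUMO attachment, is replaced by alanine. Sox11 is a transcription factor of developing neurons. Both Sox11 vectors also carry EGFP behind an IRES. All 3 groups were plated at 250000 cells per well, received 1.5 μl of virus at about 100000 vector genomes per cell, and were lysed for RNA 72 h after plating. All were grown with BDNF, CNTF and forskolin, which raises cyclic AMP. The sources name cells of embryonic day 18 for the RNA-seq, postnatal day 2 in the general account of the cultures, and postnatal day 0 in the names of the tables. Each group had 2 replicates, for 6 libraries. The protocol describes the sequencing of 3 RNA samples, each in duplicate, and does not say whether replicates came from separate cultures, so the p-values given here measure the spread between these libraries, which may be technical.

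The libraries held between 27521981 and 37061718 expected counts. *Sox11* stood at 234 and 332 CPM (counts scaled to a common library size with TMM factors) in the control libraries, at 9178 and 14591 CPM with Sox11, and at 11971 and 7026 CPM with Sox11 K91A, so that it was above control in all 4 libraries with a Sox11 virus. On the second principal component of all genes, with 18.2% of the variance, the second replicates of control and of Sox11 were set off from the remaining 4 libraries. In these 2 libraries *Xist* was lower, at 95.9 and 254 CPM against between 400.4 and 526 CPM in the others, and the Y-linked *Ddx3y* was higher, at 30.0 and 29.9 CPM against between 16.2 and 17.7 CPM. Ratios of single libraries within each of these 2 sets are therefore given beside the results of each gene. In bulk RNA, fewer cells that express a gene and less of its RNA per cell cannot be told apart.

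The control cells held several of these precursors among their most abundant transcripts. On the TPM scale, which corrects for gene length and allows levels to be compared between genes, the control mean of *Cartpt* was 2858 ± 358 TPM (SD, n = 2), the 21st highest of all genes. *Vgf* stood at 2449 ± 335 TPM and *Scg2* at 1442 ± 154 TPM, the 31st and the 68th. *Chga* at 479 ± 7.85 TPM and *Tac1* at 463 ± 16.6 TPM followed, and then *Gal* at 173 ± 69.4 TPM, *Pdyn* at 115 ± 142 TPM and *Npy* at 80.5 ± 72.7 TPM. *Sst* at 8.59 ± 5.58 TPM and *Penk* at 1.51 ± 0.30 TPM were rare transcripts.

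By median over the 6 libraries the order of levels was *Cartpt*, *Vgf*, *Scg2*, *Gal*, *Chga*, *Pdyn*, *Tac1*, *Npy*, *Sst* and *Penk*. Of the 9 pairs of neighbours in this order, the ranges over libraries were separate for 3, *Scg2* over *Gal*, *Npy* over *Sst* and *Sst* over *Penk*. The other 6 pairs overlapped, and *Cartpt* was above *Vgf* in 4 of 6 libraries. With Sox11 the mean of *Vgf* was the highest, at 812 TPM, against 637 TPM for *Cartpt*. In replicate 1 of Sox11 *Cartpt* was still above *Vgf*, at 1062 and 965 TPM. It was below *Vgf* in replicate 2 alone, at 211 and 659 TPM.

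Together the 10 genes made up 0.876% and 0.738% of all TPM in the control libraries. Their share was 0.404% and 0.223% with Sox11, and 0.312% and 0.426% with Sox11 K91A, so the groups with either Sox11 virus lay below control and overlapped each other. *Cartpt* alone gave 35.5% and 35.3% of the members' sum in control, 26.3% and 9.47% with Sox11, and 19.5% and 28.6% with Sox11 K91A. The granins *Vgf*, *Scg2* and *Chga* gave between 51.9% and 64.4% of it in every library.

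**Figure D1:**
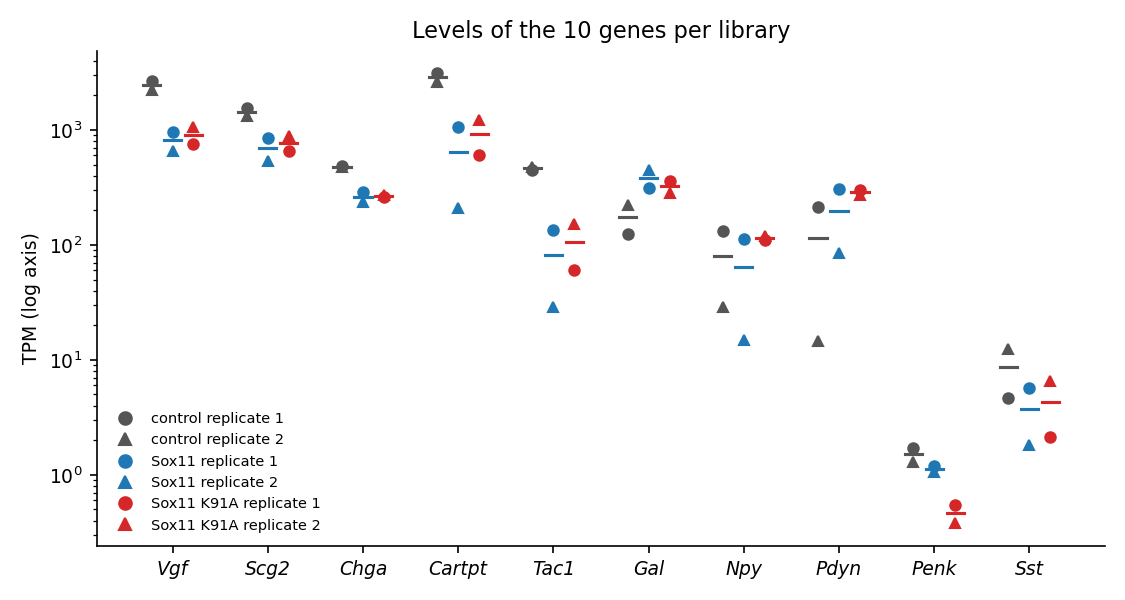
TPM of each gene in the 6 libraries, on a log axis, with circles for replicate 1, triangles for replicate 2, and a bar at the mean of each group of 2. *Vgf*, *Scg2*, *Chga*, *Cartpt* and *Tac1* lie lower in all 4 libraries with a Sox11 virus than in both control libraries, *Gal* lies higher, and *Pdyn* and *Npy* are low in replicate 2 of control and of Sox11.

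The 10 genes lie on separate chromosomes except for *Tac1* and *Npy*, both on chromosome 6. The DNA before a gene's start is where factors such as CREB, which responds to cyclic AMP, bind to control it, and the cyclic AMP response element was described in neuropeptide genes such as that of somatostatin. RefSeq windows of 250 bases before to 50 bases after the start (GRCm38.p6) were given for 8 of the 10 genes, all but *Penk* and *Vgf*. The full element TGACGTCA, a palindrome, was found in the windows of *Cartpt*, *Scg2* and *Sst*, and in 1.79% of the 32851 windows of all genes. The shorter core TGACG, searched on both strands and contained in every full element, was found in those 3 genes and in *Chga*, *Tac1* and *Gal*, and in 20.8% of all windows. The 7 stretches of 30 bases below, written 5′ to 3′ on the strand of the gene, show the element or its core in each gene. All groups were grown with forskolin, and the part of the element in the results was not tested. The capitals mark the element or its core, and CGTCA is the core on the other strand.
Cartpt, chr13:99900777-99900806, minus strand: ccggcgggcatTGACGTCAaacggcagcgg
Scg2, chr1:79440076-79440105, minus strand: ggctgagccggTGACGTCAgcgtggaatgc
Sst, chr16:23890874-23890903, minus strand: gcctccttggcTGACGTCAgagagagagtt
Chga, chr12:102554886-102554915, plus strand: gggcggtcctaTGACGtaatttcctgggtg
Gal, chr19:3414507-3414536, minus strand: cgctgagccggTGACGcggcagctcccact
Tac1, chr6:7554850-7554879, plus strand: cttccctaaaattgCGTCAtttcgaacaca
Tac1, chr6:7555004-7555033, plus strand: tggctctacaggctCGTCAcgcctgagata

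Counted from the RefSeq start, the first capital lies at -112 in *Cartpt*, -68 in *Scg2*, -48 in *Sst* and -44 in *Chga*, at -197 and -43 in *Tac1*, and at 20 bases into *Gal*. The matches in *Cartpt*, *Scg2*, *Sst* and *Gal* and the nearer match in *Tac1* lie within an exon of the GENCODE M21 annotation on the strand of the gene, so for some annotated transcripts these bases are transcribed. Letters of the SOX type AACAAT, searched on both strands, were found in the windows of *Scg2* and *Sst*, and in 10.7% of all windows. AACAAAG was found in no window of the 8 genes and in 5.85% of all windows, and the AP-1 type TGANTCA in none and in 7.81%. TATAAA was found in the window of *Chga* alone, where it begins at 6, downstream of the RefSeq start, and in 13.6% of all windows. These matches are letters in a window and say nothing about binding.

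With Sox11, 5 of the 10 genes fell, 3 granins and 2 peptide precursors. Past the threshold (a fold change of over 1.2 in either direction at an FDR under 0.05, limma-voom with Benjamini-Hochberg adjustment over all 15747 genes) were *Tac1*, *Cartpt*, *Vgf*, *Scg2* and *Chga*, all lower than in control, and 0 of the 10 were higher. Of all genes tested, 20.1% were called in this comparison, 10.2% lower and 9.96% higher. The median log2 fold change of the 10 genes was -1.07, against 0.009 for all genes tested. The 2 Sox11 libraries lay below both control libraries for 6 of the 10 genes, these 5 and *Penk*, and above them for *Gal*, where 30.6% of all genes lay below and 30.9% above. An unadjusted p under 0.05 was reached by 6 of the 10, the 5 called and *Gal*, and by 38.0% of all genes. With replicate 2 of Sox11 left out, 0 of the 10 genes and 0 of all genes were called by limma-voom. With either replicate of the control left out, 1 control library remained and fewer of the 10 were called. Over all genes the calls rose without replicate 1 of the control and fell without replicate 2. The log2 fold change of *Gal* was 1.54 without replicate 2 of the control. With a block for replicate 2 of control and of Sox11 7 were called, the 5 lower and *Gal* and *Pdyn* higher. Of all 15747 genes, 4562 were called with this block, against 3171 without it.

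With Sox11 K91A, *Vgf* and *Chga* fell and the other 8 did not pass the threshold in limma-voom. Of all genes tested, 10.6% were called in this comparison, 4.81% lower and 5.81% higher. The median log2 fold change of the 10 genes was -1.08, against 0.017 for all genes. The Sox11 K91A libraries lay below both control libraries for the same 6 genes as the Sox11 libraries, where 30.7% of all genes did, and above them for *Gal* and *Pdyn*, where 31.2% did. An unadjusted p under 0.05 was reached by 7 of the 10, these 6 and *Gal*, and by 30.6% of all genes. Both comparisons used the same control libraries, so they are not independent. With replicate 2 of the control or either replicate of Sox11 K91A left out, *Vgf* and *Chga* no longer passed. With replicate 1 or replicate 2 of Sox11 left out, *Cartpt*, *Tac1* and *Scg2* passed as well and 5 genes were called. DESeq2 called *Scg2* as well, at a log2 fold change of -0.96 (adjusted p = 0.00439). So did limma-voom on all genes with at least 1 count, at -0.97 (adjusted p = 0.0494). With a block for replicate 2 of control and of Sox11 6 of the 10 genes were called. Over all genes 2894 were called with this block, against 1672 without it. The members added were *Cartpt* at -2.43 (adjusted p = 0.0420), *Tac1* at -2.79 (adjusted p = 0.0414), *Scg2* at -1.16 (adjusted p = 0.0242) and *Gal* at 1.23 (adjusted p = 0.0165).

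Between Sox11 K91A and Sox11, 0 of the 10 genes and 0.0% of all genes tested were called by limma-voom, and DESeq2 called 2 of all genes. An unadjusted p under 0.05 was reached by 0 of the 10 genes and by 0.686% of all genes. *Penk* was the only member whose 2 groups did not overlap, with both Sox11 K91A libraries below both Sox11 libraries, where 13.4% of all genes did so.

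**Figure D2:**
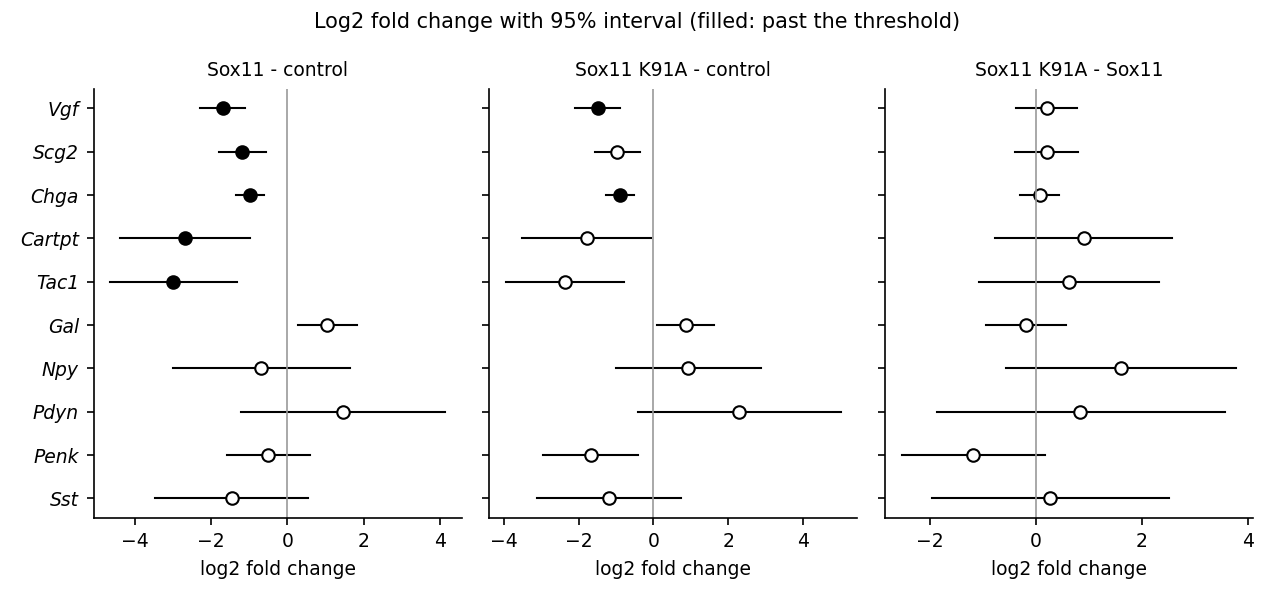
Log2 fold change of each gene with its 95% interval from limma-voom, in the 3 comparisons, with filled points for genes past the threshold. With Sox11 5 genes are filled, all to the left of 0, with Sox11 K91A *Vgf* and *Chga* are filled, and between the viruses every interval contains 0.

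*Vgf* (ENSMUSG00000037428.10, plus strand of chromosome 5, 137026392 to 137033351 of GRCm38) encodes a granin-like protein that neurotrophins such as BDNF induce and that is cut into several peptides. It stood at 3154 and 2841 CPM in control, at 1128 and 759 CPM with Sox11, and at 896 and 1265 CPM with Sox11 K91A. All 4 libraries with a Sox11 virus were below both control libraries, and the groups of the 2 viruses overlapped. The log2 fold change against control was -1.69 (SE 0.25, adjusted p = 0.0128), a 3.23-fold fall, with Sox11, and -1.49 (SE 0.25, adjusted p = 0.0226), a 2.81-fold fall, with Sox11 K91A. Within the sets of libraries the log2 ratio of Sox11 to control was -1.48 between the replicates 1 and -1.91 between the replicates 2. Of the 10 genes *Vgf* had the most counts, up to 109497 in a library.

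*Scg2* (ENSMUSG00000050711.7, minus strand of chromosome 1, 79434669 to 79440120) encodes secretogranin II, the precursor of secretoneurin. Its values were 1725 and 1631 CPM in control, 935 and 587 CPM with Sox11, and 739 and 994 CPM with Sox11 K91A. Again all 4 libraries with a Sox11 virus were below control. With Sox11 it fell by 1.18 on the log2 scale (SE 0.25, adjusted p = 0.0254). With Sox11 K91A the value was -0.97 (SE 0.26, adjusted p = 0.0562), just short of the threshold, and the difference between the viruses was 0.21 with a 95% interval from -0.39 to 0.80. The ratio of *Vgf* to *Scg2* on the TPM scale was 1.73 and 1.66 in control, and between 1.13 and 1.22 in the 4 libraries with a Sox11 virus, so *Vgf* stood further below its control level than *Scg2* in every library with a Sox11 virus.

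*Chga* (ENSMUSG00000021194.5, plus strand of chromosome 12, 102554969 to 102565028) encodes chromogranin A, the founding granin of dense core vesicles. It was at 410 and 436 CPM in control, at 239 and 194 CPM with Sox11, and at 219 and 234 CPM with Sox11 K91A, the narrowest spread of the 10 genes, over a range of 1.17 on the log2 scale. The groups with a Sox11 virus were again separate from control. The log2 fold change was -0.97 (SE 0.16, adjusted p = 0.0139) with Sox11 and -0.90 (SE 0.16, adjusted p = 0.0233) with Sox11 K91A, falls of 1.96-fold and 1.87-fold. Within the sets of libraries, the log2 ratios of Sox11 to control were -0.78 and -1.17 for *Chga*, and -0.88 and -1.47 for *Scg2*. Without replicate 2 of Sox11 the adjusted p of the Sox11 comparison was 0.0977 for *Chga* and 0.0839 for *Vgf*, at log2 fold changes of -0.82 and -1.41.

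*Cartpt* (ENSMUSG00000021647.6, minus strand of chromosome 13, 99898489 to 99901091) encodes the precursor of CART peptides, which are known in the retina from direction selective RGCs. It stood at 1035 and 929 CPM in the control libraries, at 345 and 67.2 CPM with Sox11, and at 201 and 403 CPM with Sox11 K91A. The control libraries were close to each other and above all others, and the 2 Sox11 libraries differed 5.13-fold from each other. With Sox11 it fell by 2.68 on the log2 scale (SE 0.72, 95% interval -4.39 to -0.97, adjusted p = 0.0429), which is 6.41-fold. With Sox11 K91A the log2 fold change was -1.78 (SE 0.73, 95% interval -3.51 to -0.05, adjusted p = 0.153). The ratio of Sox11 to control was -1.59 on the log2 scale between the replicates 1 and -3.79 between the replicates 2. The call for Sox11 was kept without replicate 1 of Sox11 and was lost without any of the other 5 libraries, at adjusted p between 0.0505 and 0.129, and edgeR's quasi-likelihood test gave an adjusted p of 0.0712.

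*Tac1* (ENSMUSG00000061762.8, plus strand of chromosome 6, 7554879 to 7565834) encodes the precursor of substance P and neurokinin A. Its values were 169 and 192 CPM in control, 51.7 and 10.7 CPM with Sox11, and 21.8 and 57.0 CPM with Sox11 K91A, with no overlap between control and either virus. With Sox11 it fell by 2.99 (SE 0.70, adjusted p = 0.0303), the largest fall of the 10 genes in limma-voom. With Sox11 K91A the log2 fold change was -2.37 (SE 0.67, adjusted p = 0.0652). Within the sets of libraries the log2 ratio of Sox11 to control was -1.71 and -4.16. The call for Sox11 was lost without either control replicate or without replicate 2 of Sox11, at adjusted p between 0.0539 and 0.142, as was that of *Scg2*, at adjusted p between 0.0556 and 0.140. On the TPM scale *Cartpt* was between 5.49 and 10.1 times as abundant as *Tac1* in every library.

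*Gal* (ENSMUSG00000024907.6, minus strand of chromosome 19, 3409915 to 3414544) encodes the precursor of galanin, a peptide that many neurons make after axotomy. It was the member that lay above control with both viruses. It stood at 31.1 and 59.2 CPM in control, at 76.0 and 107 CPM with Sox11, and at 89.5 and 70.1 CPM with Sox11 K91A. No library with a Sox11 virus was below a control library. The log2 fold change was 1.05 (SE 0.32, 95% interval 0.29 to 1.82, adjusted p = 0.0592) with Sox11 and 0.87 (SE 0.32, 95% interval 0.11 to 1.63, adjusted p = 0.124) with Sox11 K91A, and neither passed the threshold. Within the sets of libraries the log2 ratio of Sox11 to control was 1.29 between the replicates 1 and 0.86 between the replicates 2. With DESeq2 *Gal* passed with Sox11, at an adjusted p of 0.0158. With the block for replicate 2 of control and of Sox11 it passed with both viruses, at 1.06 (adjusted p = 0.0119) and 1.23 (adjusted p = 0.0165), as it did with these 2 libraries left out, at 1.29 (adjusted p = 0.0399) and 1.35 (adjusted p = 0.0157). The ratio of *Cartpt* to *Gal* on the TPM scale was 25.0 and 11.7 in control, 3.40 and 0.468 with Sox11, and 1.68 and 4.30 with Sox11 K91A, so in replicate 2 of Sox11 *Gal* was the more abundant of the pair.

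*Pdyn* (ENSMUSG00000027400.7, minus strand of chromosome 2, 129686565 to 129699844) encodes prodynorphin, a precursor of opioid peptides, and had the widest range of the 10 genes, 4.23 on the log2 scale. It stood at 235 and 17.7 CPM in control, at 331 and 91.5 CPM with Sox11, and at 327 and 301 CPM with Sox11 K91A. The low values belong to replicate 2 of control and of Sox11, and the control replicates differed 13.3-fold. The log2 fold change was 1.46 (SE 1.13, adjusted p = 0.386) with Sox11 and 2.30 (SE 1.14, adjusted p = 0.225) with Sox11 K91A, neither past the threshold. The log2 ratio of Sox11 to control was 0.49 between the replicates 1 and 2.37 between the replicates 2, and those of the Sox11 K91A libraries to replicate 1 of the control were 0.48 and 0.35. Without replicate 2 of the control, the values were -0.44 with Sox11 and 0.41 with Sox11 K91A. Without replicate 1 of the control, *Pdyn* passed the threshold with Sox11 K91A at 4.15 (adjusted p = 0.0399).

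*Npy* (ENSMUSG00000029819.6, plus strand of chromosome 6, 49822710 to 49829507) encodes neuropeptide Y, a peptide of amacrine cells in the retina. It was low in the same 2 libraries as *Pdyn*. Its values were 23.2 and 5.37 CPM in control, 19.2 and 2.47 CPM with Sox11, and 19.1 and 20.5 CPM with Sox11 K91A. The groups overlapped in all 3 comparisons. With Sox11 its log2 fold change was -0.68 (SE 0.98, adjusted p = 0.651), and with Sox11 K91A it was 0.93 (SE 0.82, adjusted p = 0.490). The log2 ratio of Sox11 to control was -0.28 between the replicates 1 and -1.12 between the replicates 2. Among the other 4 libraries *Npy* lay between 19.1 and 23.2 CPM.

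Some amacrine markers were low in the same 2 libraries as *Pdyn* and *Npy*, and others were not. *Gad1*, which encodes an enzyme of GABA synthesis, was at 2.83 and 2.23 CPM in replicate 2 of control and of Sox11, against between 17.2 and 36.2 CPM in the other 4 libraries. *Slc32a1*, the vesicular transporter of GABA, was at 1.22 and 2.59 CPM in those 2 libraries and between 7.68 and 14.6 CPM in the others. *Tfap2b*, a transcription factor of amacrine cells like *Tfap2a*, was at 2.41 and 5.79 CPM in those 2 and between 11.0 and 25.8 CPM in the others. *Gad2*, the other GABA-synthesising enzyme and the most abundant marker of the list in every library, stood at 139.6 and 71.5 CPM in control, 52.6 and 20.6 CPM with Sox11, and 28.5 and 48.3 CPM with Sox11 K91A, so replicate 2 of the control was above replicate 1 of Sox11 and both Sox11 K91A libraries. *Slc6a9*, a glycine transporter, was at 27.6 and 17.5 CPM, 6.92 and 3.62 CPM, and 5.34 and 7.78 CPM in the same order. The 8 amacrine markers, of which 7 were tested and *Slc6a9* was called lower with both viruses, summed to 233 and 95.9 CPM in control, 113 and 37.9 CPM with Sox11, and 96.9 and 104 CPM with Sox11 K91A. The 3 genes of at least 1 CPM whose profile over the 6 libraries was most like *Pdyn*, out of 13378, were *Sox2*, *Gm14204* and *Tfap2a*, with root mean square differences of 0.20, 0.34 and 0.36 in log2 CPM centred on each gene's mean. *Sox2*, a transcription factor of progenitors, glia and some amacrine cells, stood at 7.66 and 0.623 CPM in control, 11.0 and 2.59 CPM with Sox11, and 11.6 and 7.17 CPM with Sox11 K91A. *Tfap2a*, a transcription factor of amacrine cells, was at 0.363 and 2.65 CPM in replicate 2 of control and of Sox11 and between 3.22 and 7.60 CPM in the others. The part of other cells in the levels of *Pdyn* and *Npy* was not tested.

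**Figure D3:**
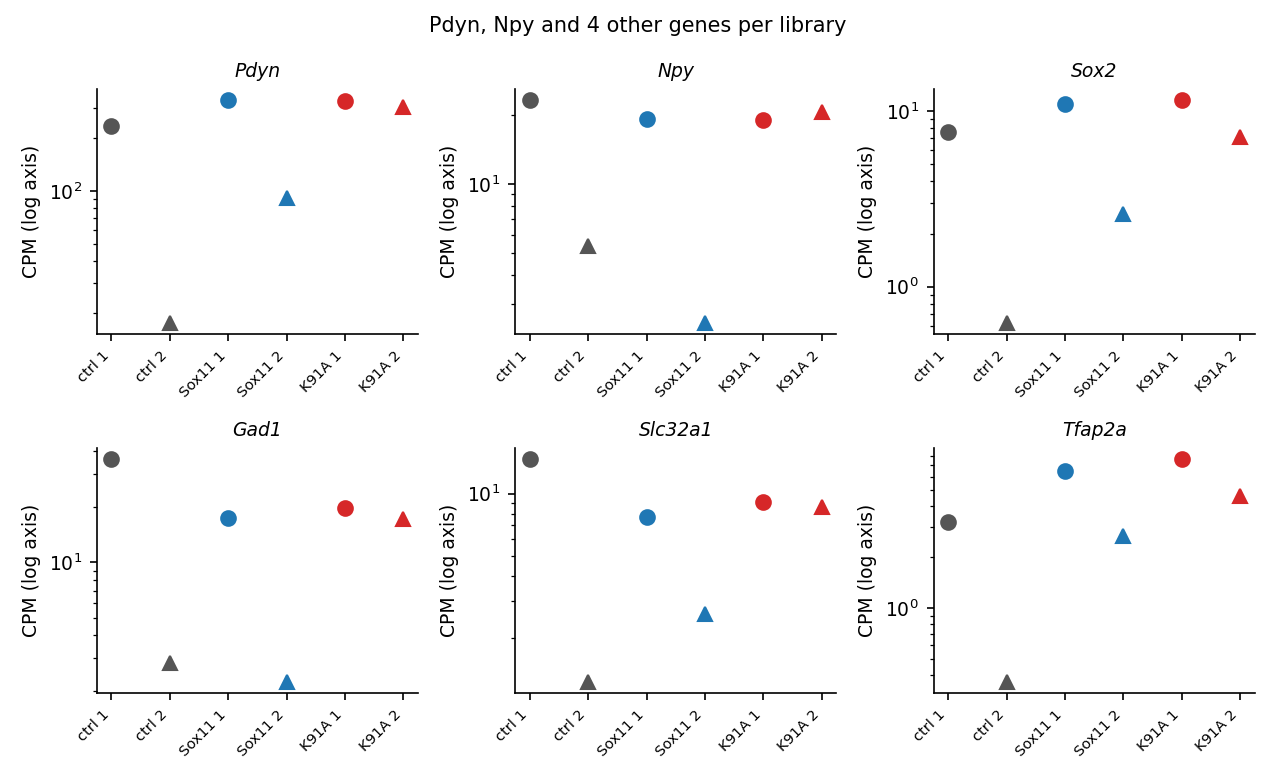
CPM of *Pdyn*, *Npy*, *Sox2*, *Gad1*, *Slc32a1* and *Tfap2a* in each of the 6 libraries, on log axes, with circles for replicate 1 and triangles for replicate 2. In each panel the 2 lowest points are replicate 2 of control and replicate 2 of Sox11, at 17.7 and 91.5 CPM for *Pdyn* and at 5.37 and 2.47 CPM for *Npy*. The amacrine markers *Gad2* and *Slc6a9*, which did not follow this pattern, are not drawn.

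*Penk* (ENSMUSG00000045573.9, minus strand of chromosome 4, 4133531 to 4138819) encodes proenkephalin and was the rarest of the 10 genes. It held 30 and 34 expected counts in control, 20 and 21 with Sox11, and 11 and 7 with Sox11 K91A, or 1.07 and 0.882 CPM, 0.728 and 0.633 CPM, and 0.341 and 0.240 CPM. The 3 groups did not overlap, and control was the highest. The log2 fold change was -0.50 (SE 0.46, adjusted p = 0.463) with Sox11 and -1.68 (SE 0.54, adjusted p = 0.0897) with Sox11 K91A. The difference between the viruses was -1.19 with a 95% interval from -2.54 to 0.17 (limma-voom, adjusted p = 1). The log2 ratio of Sox11 to control was -0.56 between the replicates 1 and -0.48 between the replicates 2, and those of the Sox11 K91A libraries to replicate 1 of the control were -1.65 and -2.16. The gene overlaps *A830012C17Rik* on the other strand, and whether the counting used strand is not given in the sources used here.

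*Sst* (ENSMUSG00000004366.3, minus strand of chromosome 16, 23889573 to 23890958) encodes the precursor of somatostatin and was also rare. It held 25 and 98 expected counts in control, 29 and 11 with Sox11, and 13 and 36 with Sox11 K91A, or 0.895 and 2.54 CPM, 1.06 and 0.332 CPM, and 0.403 and 1.23 CPM. The groups overlapped in every comparison, and replicates within each group differed between 2.84-fold and 3.18-fold. Neither virus moved it past the threshold, at -1.46 (SE 0.84, adjusted p = 0.251) with Sox11 and -1.19 (SE 0.81, adjusted p = 0.369) with Sox11 K91A. The log2 ratio of Sox11 to control was 0.24 between the replicates 1 and -2.94 between the replicates 2, opposite in sign. Its promoter carries the same full element as *Cartpt* and *Scg2*, at 5.15 TPM by median against 1139.8 TPM and 866 TPM.

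The 4 libraries with a Sox11 virus differed in their own level of *Sox11*, which was highest in replicate 2 of Sox11, then in replicate 1 of Sox11 K91A, replicate 1 of Sox11 and replicate 2 of Sox11 K91A. For 6 of the 10 genes, *Cartpt*, *Tac1*, *Npy*, *Sst*, *Vgf* and *Scg2*, these 4 libraries stood in exactly the reverse order, as did 13.9% of all other genes tested. *Gal* stood in the same order as *Sox11*, as did 12.4%. From the library with the most *Sox11* to the library with the least, *Cartpt* stood at 67.2, 201, 345 and 403 CPM. In that order *Vgf* was at 759, 896, 1128 and 1265 CPM and *Npy* at 2.47, 19.1, 19.2 and 20.5 CPM. Among these 4, *Npy* was low only in replicate 2 of Sox11. That library stands apart with replicate 2 of the control, where *Npy* was at 5.37 CPM without a Sox11 virus. Of the 5 genes called lower with Sox11, 4 were in the reverse order, all but *Chga*, and so were 51.3% of all 1603 genes called lower. The first principal component of all genes, which held 62.9% of the variance, put the 4 libraries in the order of *Sox11* too, at 74.2, 41.3, 20.9 and 10.8. The part of the *Sox11* level in this order was not tested, and 4 libraries from 2 groups are too few for a correlation.

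**Figure D4:**
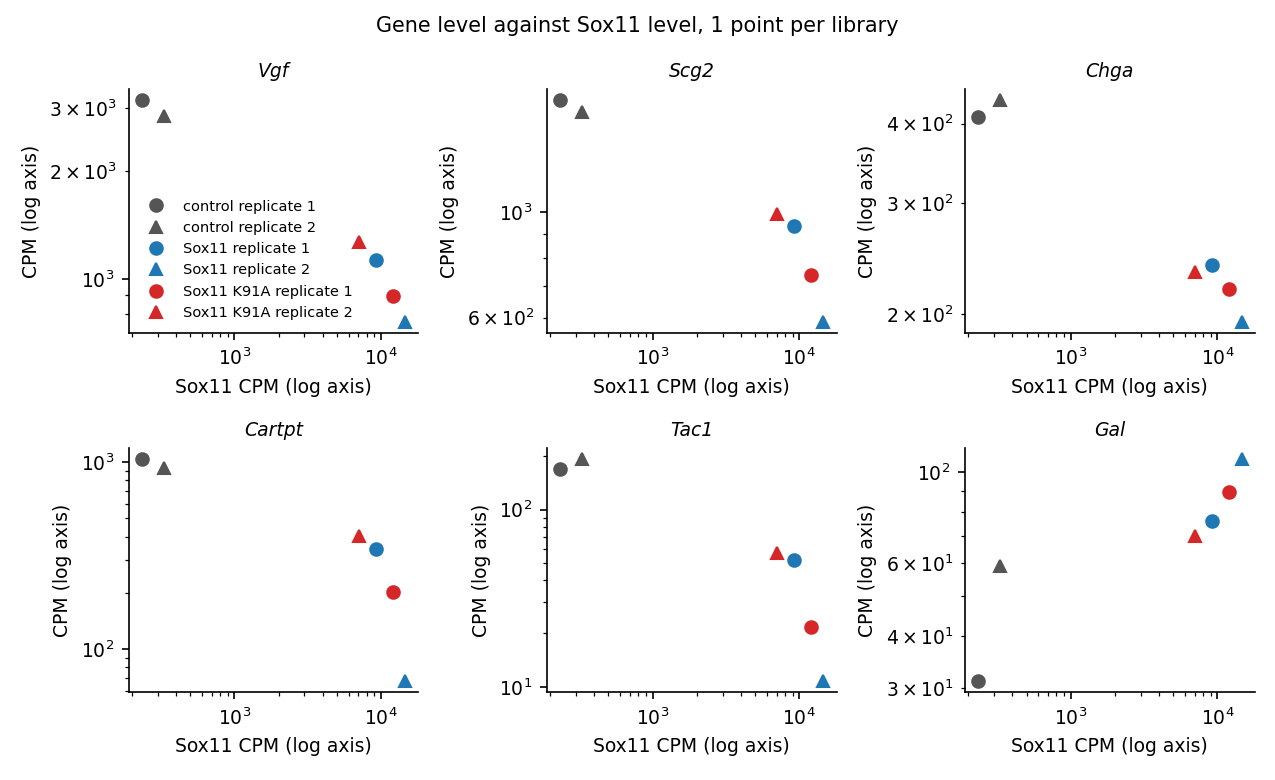
CPM of *Vgf*, *Scg2*, *Chga*, *Cartpt*, *Tac1* and *Gal* against CPM of *Sox11*, 1 point per library, on log axes with a separate vertical axis for each gene. Among the 4 libraries at 7026 to 14591 CPM of *Sox11*, *Vgf*, *Scg2*, *Cartpt* and *Tac1* decrease from left to right and *Gal* increases from 70.1 to 107 CPM.

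Setting Sox11 K91A directly against Sox11 gives an interval for the difference of each gene between these libraries. The fit had no block, and replicate 2 of Sox11 stood in another set than both Sox11 K91A libraries. The intervals therefore do not bound a difference in the effect of the viruses. The interval was narrowest for *Chga*, at a difference of 0.07 with a 95% interval from -0.30 to 0.43 on the log2 scale. For *Vgf* it was 0.20, from -0.38 to 0.78, and for *Gal* -0.19, from -0.94 to 0.56. For the peptides with wide spread the intervals were wide, with 0.90 (-0.77 to 2.57) for *Cartpt*, 0.62 (-1.07 to 2.32) for *Tac1*, 1.61 (-0.57 to 3.79) for *Npy*, 0.84 (-1.88 to 3.57) for *Pdyn* and 0.27 (-1.97 to 2.52) for *Sst*. All adjusted p-values from limma-voom were 1. These intervals do not show that the viruses acted alike. Against replicate 1 of Sox11, which stands in the same set of libraries as both Sox11 K91A libraries, the log2 ratios of these were -0.78 and 0.23 for *Cartpt*, -1.24 and 0.14 for *Tac1*, -0.33 and 0.17 for *Vgf*, and -0.13 and -0.04 for *Chga*.

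The profile of *Cartpt* over the 6 libraries was most like that of *Thy1*, with a root mean square difference of 0.06 in centred log2 CPM, followed by *Pcgf5* at 0.13 and *Tagln2* at 0.16. *Thy1* encodes CD90, the surface antigen by which the cells were purified. It stood at 725 and 689 CPM in control, at 259 and 46.3 CPM with Sox11, and at 154 and 312 CPM with Sox11 K91A, above all others in control as *Cartpt* was. The genes most like *Tac1* were *Ube2l6* at 0.15, *Ly6c1* at 0.17 and *Lgals1* at 0.21. *Lgals1*, which encodes galectin-1, was at 271 and 242 CPM in control, 52.6 and 12.4 CPM with Sox11, and 23.8 and 66.8 CPM with Sox11 K91A.

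RGC markers were present in every library. The 8 RGC markers summed to 10249 and 9480 CPM in control, 6477 and 3933 CPM with Sox11, and 5182 and 6791 CPM with Sox11 K91A, most of it *Nefl*, a neurofilament gene. *Thy1*, *Nefl* and *Slc17a6* were called lower with Sox11, 3 of 8 where 10.2% of all genes were, and *Slc17a6* with Sox11 K91A, 1 of 8 where 4.81% were. *Rbpms*, *Pou4f1*, *Pou4f2* and *Isl1*, which encode an RNA-binding protein and transcription factors, did not pass the threshold with either virus. *Isl1* stayed between 260.3 and 289 CPM in all 6 libraries. *Sncg* did not pass either, and was at 481 CPM in replicate 2 of Sox11 against between 734 and 915 CPM in the other libraries. Markers of photoreceptors, bipolar cells, microglia and dividing cells summed to at most 1.66, 1.09, 1.33 and 1.90 CPM, with *Rcvrn* at 0 in all libraries, and endothelial and mural markers to at most 3.80 CPM. Müller glia and astrocyte markers summed to between 105 and 314 CPM, nearly all *Glul*, which rose by 1.49 and 1.51 on the log2 scale with Sox11 and Sox11 K91A. *Slc1a3*, *Rlbp1* and *Sox9* of that list had log2 fold changes of -2.13, -2.51 and -1.66 with Sox11 and -1.10, -2.70 and -2.94 with Sox11 K91A. *Pax2* went the other way, at 0.81 and 1.30. None of these genes passed the threshold, at no more than 3.74 CPM, and *Gfap* was at 0. The part of these shifts in the results was not tested. Of 5 other genes listed as markers of direction selective RGCs, 1 was called lower with each virus, where 10.2% and 4.81% of all genes were. This was *Cdhr1*, at -2.87 with Sox11 and -2.41 with Sox11 K91A. The other 4 did not pass with either virus and lay on both sides of 0, from -1.27 to 0.64 with Sox11 and from -0.92 to 0.99 with Sox11 K91A.

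Among 49 other peptide precursors and granins, 48 were found and 25 were tested. With Sox11, 7 of these (28.0%) were lower and 0 higher, and with Sox11 K91A 3 (12%) were lower and 0 higher. Of all genes, 10.2% were lower with Sox11 and 4.81% with Sox11 K91A. The median log2 fold change of the list was -1.36 and -1.07. *Adcyap1*, the precursor of PACAP, stood at 418 and 367 CPM in control, 51.0 and 20.6 CPM with Sox11, and 23.2 and 59.8 CPM with Sox11 K91A, and fell with both viruses, at log2 fold changes of -3.62 (SE 0.52, adjusted p = 0.0126) and -3.41 (SE 0.52, adjusted p = 0.0199). *Nts*, the neurotensin precursor, fell with both, at log2 fold changes of -1.33 and -1.26, from 294 and 405 CPM in control to between 110 and 176 CPM in the 4 libraries with a Sox11 virus. *Nppb*, a natriuretic peptide precursor, fell with both too, at -3.54 and -3.49. *Calca*, *Nppa* and *Pomc* passed the threshold with Sox11, at -3.36, -3.23 and -2.03, and did not pass with Sox11 K91A, at -3.65, -2.60 and -1.33. *Ucn*, the urocortin precursor, held 15 and 26 expected counts in control, 0 and 0 with Sox11, and 5 and 1 with Sox11 K91A, and a library at 0 counts allows up to 3.

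None of the 4 other granin and granin-related genes on that list passed the threshold with either virus in limma-voom. *Chgb*, which encodes chromogranin B, stood at 471 and 432 CPM in control, at 532 and 580 CPM with Sox11, and at 568 and 503 CPM with Sox11 K91A, at log2 fold changes of 0.30 (adjusted p = 0.182) and 0.24 (adjusted p = 0.305) in limma-voom. All 4 of its libraries with a Sox11 virus were above both control libraries. *Scg3*, which encodes secretogranin III, was at 439 and 501 CPM, 580 and 704 CPM, and 593 and 560 CPM in the same order, at 0.45 (adjusted p = 0.0885) and 0.30 (adjusted p = 0.258). With Sox11 it passed in DESeq2 (adjusted p = 0.0462) and with the block for replicate 2 of control and of Sox11 (adjusted p = 0.0386), higher than control. *Scg5*, which encodes the chaperone 7B2 of convertase 2, was at -0.02 and 0.08, and *Pcsk1n*, which encodes an inhibitor of convertase 1, at 0.11 and 0.05, none past the threshold.

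Of 32 genes of peptide processing and dense core vesicle secretion, 31 were tested. With Sox11 9 (29.0%) were lower, where 10.2% of all genes were, and *Mme*, which encodes the peptide-degrading neprilysin, was higher by 1.26. With Sox11 K91A 5 (16.1%) were lower, *Ece2*, *Pam*, *Pcsk1*, *Ptprn* and *Qpct*, where 4.81% of all genes were. The median log2 fold change of the list was -0.46 and -0.30. *Pcsk1*, the convertase 1 that cuts many precursors, stood at 132 and 79.4 CPM in control, 37.1 and 21.3 CPM with Sox11, and 29.3 and 40.2 CPM with Sox11 K91A, and fell with both viruses, at log2 fold changes of -1.89 (SE 0.34, adjusted p = 0.0174) and -1.59 (SE 0.33, adjusted p = 0.0338). *Ptprn*, which encodes the vesicle membrane protein IA-2, fell at -2.06 and -1.66, and *Qpct*, which forms the pyroglutamate at the start of some peptides, at -2.01 and -1.75. *Pam*, the enzyme that amidates peptides, fell at -0.97 and -1.05. *Rab27b*, *Gpr158* and *Rab3a* fell with Sox11, at -1.67, -1.67 and -1.04. *Pcsk2*, which encodes convertase 2, and *Cpe*, which encodes the trimming carboxypeptidase E, did not pass, at log2 fold changes of 0.23 and 0.41 with Sox11 and of 0.01 and 0.34 with Sox11 K91A.

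**Figure D5:**
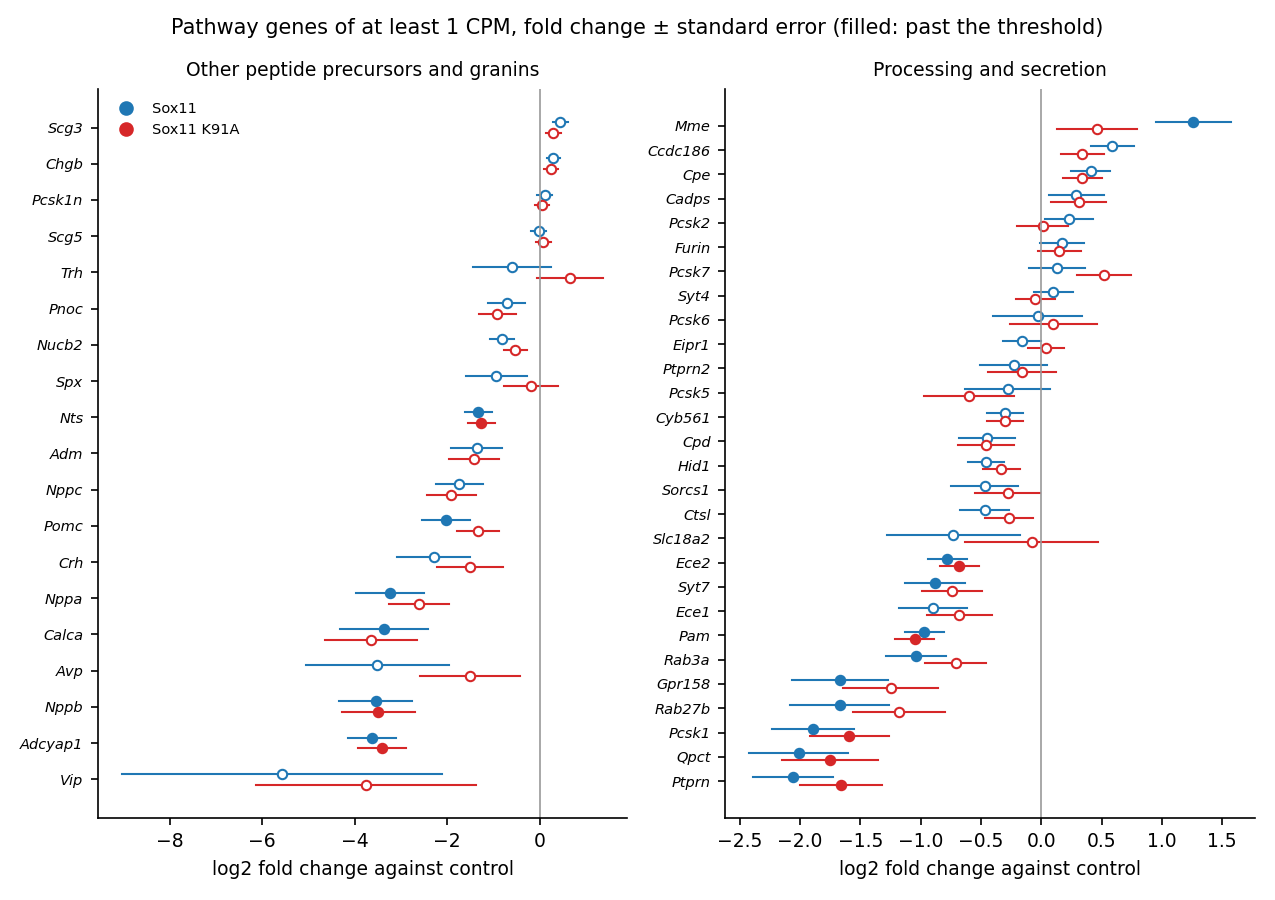
Log2 fold change against control ± standard error for other peptide precursors and granins (left) and for genes of peptide processing and dense core vesicle secretion (right) with a mean of at least 1 CPM, in blue for Sox11 and red for Sox11 K91A, with filled points past the threshold. *Adcyap1*, *Nppb* and *Nts* on the left and *Ptprn*, *Qpct*, *Pcsk1*, *Pam* and *Ece2* on the right are filled for both viruses, and *Chgb*, *Scg3*, *Pcsk2* and *Cpe* are open and lie at or to the right of 0.

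Of 21 genes for receptors of these and related peptides 20 were found and 10 were tested. With Sox11 *Npy1r*, a receptor of neuropeptide Y, rose by 1.46 on the log2 scale and *Oprl1*, the nociceptin receptor, by 0.68, and *Sstr3*, a somatostatin receptor, and *Tacr1*, the receptor of substance P, fell, at -4.00 and -2.46. These are 2 of 10 higher and 2 of 10 lower, where 9.96% of all genes were higher and 10.2% lower. The calls for *Npy1r* and *Oprl1* were kept under 10 and 11 of 21 alternatives, and both were lost without replicate 1 of the control, without replicate 2 of Sox11 and without either replicate of Sox11 K91A. With Sox11 K91A *Sstr3* fell, at -3.40, and the other 9 did not pass. *Sstr3* stood at 7.91 and 5.53 CPM in control and at no more than 0.764 CPM in the 4 libraries with a Sox11 virus, and *Tacr1* at 1.29 and 1.38 CPM in control and at no more than 0.412 CPM in these 4. The replicates of each group were close for *Oprl1*, at 20.0 and 24.7 CPM in control, 34.0 and 37.9 CPM with Sox11, and 37.9 and 33.2 CPM with Sox11 K91A. *Oprl1* had a log2 fold change of 0.66 (limma-voom, adjusted p = 0.0549) with Sox11 K91A, so all 4 libraries with a Sox11 virus lay above control.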

How the data were processed

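RNA-seq was analysed from 6 libraries of cultured mouse RGCs. Reads were mapped by the authors with STAR (mouse genome mm10), RSEM gave expected counts per gene, which are not normalized, and TPM, and the authors deposited both in 1 table per library. Versions, annotation and use of strand are not given in the sources used here. Symbols and coordinates came from GENCODE M21 (GRCm38), matched by Ensembl identifier, and promoter windows from RefSeq (GRCm38.p6). Numbered entries and spike-ins, which held 1 and 0 counts, were left out.

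Expected counts were rounded, filtered with filterByExpr of edgeR (version 4.0.16) and scaled by TMM (factors 0.985 to 1.04). All 15747 genes were fitted with the voom method of limma 3.58.1 in R 4.3.3 on all 6 libraries without a covariate, since limma-voom was the study's method, and its thresholds were kept (FDR under 0.05, fold change over 1.2 up or down). Adjusted p-values are those of limma-voom, two-sided, except where edgeR or DESeq2 is named. Alternatives included edgeR, DESeq2 (version 1.42.0), other scaling and filters, blocks, unrounded counts, no fold change threshold, and leaving out each library. Their main effects are given below. On counts simulated for Sox11 against control (15397 genes, dispersion 0.03, 200 of them changed 4-fold), the fit called 96% of the changed genes, and 4.5% of its calls were false. The simulation gave every gene the same dispersion and had no offset between sets of libraries. These rates therefore check the working of the fit and are not error rates of the calls in the real libraries. Figures were drawn with Python 3.11.15 and matplotlib 3.10.9.

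All 10 members are named. Of each gene list, genes past the threshold against control are named where 8 or fewer moved in a direction, and otherwise the 6 with the largest change with Sox11 among genes of at least 1 CPM. The other genes named from the lists (*Chgb*, *Scg3*, *Scg5*, *Pcsk1n*, *Pcsk2* and *Cpe*) were chosen after their values were seen. For the 3 members with the widest range, the 3 genes with the most similar profile are named. The members and lists were chosen with earlier results of these data known. The members' expected counts were whole in all 6 libraries, at between 7 and 109497 counts. Features of the precursor proteins were not analysed here.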

Additional observations from a re-analysis of the deposited data

How the results depend on the processing

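The 2 replicates per group limit what these data can show, and leaving out single libraries removed many calls. Of the 637 values of single members under alternatives, 553 kept their direction and their side of the threshold, 29 lost and 26 gained a call, and 29 changed sign. Only calls of the main fit could be lost, 5 with Sox11, 2 with Sox11 K91A and 0 between the viruses. The Sox11 calls were kept under 11 of 21 alternatives for *Cartpt*, 15 for *Tac1*, 16 for *Scg2*, and 20 each for *Vgf* and *Chga*. The Sox11 K91A calls of *Vgf* and *Chga* were each kept under 18 of 21. The alternatives included the main fit without the fold change threshold, which could lose no call and change no direction. Another used unrounded counts and called 3170 of all genes with Sox11, close to the main fit. Both add to the values that kept their call. The cause of these changes was not tested. The number of members called with Sox11, 5, was 3 with edgeR's quasi-likelihood test, 2 with sample quality weights, 3 with replicate 2 of control and of Sox11 left out together, 6 with DESeq2, 7 with a block for these 2 libraries, of which 2 (*Gal* and *Pdyn*) were higher, and 0 to 5 with each library left out in turn. All genes called with Sox11, 3171, became 979 with quality weights, 2107 with limma-trend on log2(TPM + 0.1), 1637 in a fit of the 2 groups alone, 1630 with both libraries left out, 4345 with DESeq2, 4562 with the library block, and 0 to 3742 with each library left out, with 0 reached without replicate 2 of Sox11. The number of members called with Sox11 K91A, 2, became 5 in a fit of the 2 groups alone, 6 with a block for replicate 2 of control and of Sox11, 6 with both left out, and 0 to 5 with each library left out. All genes called with Sox11 K91A, 1672, became 3144 with DESeq2, 936 and 896 with limma-trend on log2(TPM + 1) and log2(TPM + 0.1), 2894 with the library block, 3871 with both libraries left out, and 0 to 2529 with each library left out, with 0 reached without replicate 2 of the control and without replicate 1 of Sox11 K91A. With edgeR's quasi-likelihood test 2838 of all genes were called with Sox11 and 1425 with Sox11 K91A. Between the viruses DESeq2 called 2 genes and limma-voom 0. The other peptide precursors and granins called with Sox11, 7, ranged from 0 to 13 over the alternatives, the processing and secretion genes, 10, from 0 to 14, and the receptors, 4, from 0 to 7. Other scaling, unrounded counts and no fold change threshold each left 5 members called with Sox11 and 2 with Sox11 K91A. *Penk* had no value with at least 10 counts in every library.

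Changes of sign were met only in comparisons in which the gene had not passed the threshold. With replicate 2 of control and of Sox11 left out together, *Sst* stood at 0.24 with Sox11, *Npy* at -0.24 with Sox11 K91A, and the difference between the viruses at -0.28 for *Cartpt*, -0.57 for *Tac1*, 0.06 for *Gal*, -0.60 for *Sst*, -0.08 for *Pdyn*, *Vgf* and *Chga*, and -0.13 for *Scg2*. With the library block *Npy* stood at -0.33 with Sox11 K91A, and the difference between the viruses at 0.16 for *Gal* and -0.53 for *Pdyn*. With each library left out in turn, *Npy* ranged from -2.07 to 0.88 and *Pdyn* from -0.44 to 3.30 with Sox11, and *Npy* from -0.24 to 1.88 with Sox11 K91A. The difference between the viruses then ranged from -0.27 to 2.08 for *Cartpt*, -0.56 to 1.70 for *Tac1*, -0.44 to 0.06 for *Gal*, -0.59 to 1.08 for *Sst*, -0.08 to 1.78 for *Pdyn*, -0.08 to 0.49 for *Vgf*, -0.13 to 0.55 for *Scg2* and -0.08 to 0.22 for *Chga*.

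The labels link samples of different groups only by a replicate number. Across genes, the deviations of same-numbered libraries from their group means correlated at 0.259 for control and Sox11, -0.0448 for control and Sox11 K91A, and -0.282 for Sox11 and Sox11 K91A. These values cannot show what the libraries share, and replicate 2 of control and of Sox11 stood apart together, as described above. With the replicate number as a block, 6 members and 2679 genes were called with Sox11, *Gal* being the member added, 2 members and 1402 genes with Sox11 K91A, and 0 and 0 between the viruses. With the numbers of Sox11 K91A exchanged, a pairing chosen after seeing the data, 0 members and 0 genes were called between the viruses.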
